A study of Rattus norvegicus with 40 samples.

Results

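The interferon-stimulated genes described here were 9 genes chosen by name. They were the transcription factors *Irf1* and *Irf7*, the GTPases *Mx1*, *Mx2* and *Gbp2*, and the ubiquitin-like modifier *Isg15*. With them came the tetratricopeptide proteins *Ifit2* and *Ifit3* and the nucleotide synthetase *Oas1a*. Every probeset whose annotated symbol was exactly one of these names was taken, which gave 11 probesets among the 31042 probesets and 14217 named genes tested. The probeset with the highest mean log2(signal + 16) over all 40 arrays stood for its gene, and the second probesets of *Mx2* and *Ifit2* are given beside it. The arrays held dorsal root ganglia (DRGs) of male Sprague-Dawley rats, with 1 array per DRG, taken 4 weeks after surgery. In 5 SNL rats the left L5 spinal nerve was tied tightly beyond its DRG, and 5 sham rats had the same operation without the tie. Ipsilateral and contralateral L4 and L5 DRGs of each rat gave 8 groups of 5 arrays, and the sources used here do not state the age of the rats. The ipsilateral SNL L5 DRG holds the neurons whose axons were ligated, the ipsilateral SNL L4 DRG holds neighbouring neurons whose spinal nerve was not tied, and the study asked how transcripts change in each. A whole DRG contains sensory neurons, satellite glia, Schwann cells, macrophages and blood vessels, so that fewer cells of a type and less RNA per cell cannot be told apart.

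Interferons are secreted proteins that warn cells of infection or damage. Type I interferons and interferon-gamma bind separate receptors, which activate JAK kinases and STAT transcription factors. Type I interferons act mainly through a DNA motif called the interferon-stimulated response element (ISRE), and interferon-gamma through the gamma-activated site (GAS). The genes so induced encode antiviral effectors, factors that amplify the response and enzymes that limit it. Macrophages, which gather in a DRG after its axons are cut, respond strongly to both kinds of interferon.

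The stretches below are shown because they hold the letters of the ISRE or GAS motif, while the genes themselves were chosen by name. RefSeq promoter windows of the GRCr8 build, from 250 bases before to 50 bases after the annotated start, were at hand for 6 of the 9 genes, and 5 of these held a pair of TTTC, or on the opposite strand of GAAA, with any 2 bases between (ISRE), or TTCNNNGAA (GAS, the same on either strand). Each line reads in the direction of its gene, with the matched letters in capitals.
*Gbp2*, chr2:234005688-234005713, plus strand, ISRE beginning 31 bases before the start: ttttttagTTTCACTTTCattgtctt
*Irf7*, chr1:205800075-205800100, minus strand, ISRE beginning 69 bases before the start: agtttaggTTTCATTTTCccgagacg
*Ifit3*, chr1:241527274-241527299, plus strand, ISRE beginning 44 bases before the start: taagtctgTTTCAGTTTCtagtttcc
*Oas1a*, chr12:41330417-41330442, plus strand, ISRE on the opposite strand beginning 41 bases before the start: cctctcggGAAATGGAAActgaaaat
*Irf1*, chr10:38417785-38417810, plus strand, GAS beginning 142 bases before the start: agcctgatTTCCCCGAAatgatgagg
The window of *Oas1a* held a further ISRE, beginning 35 bases before the start and overlapping the one shown, and a GAS beginning 199 bases before it. The *Mx1* window held neither motif in these letters. Of 33469 RefSeq promoter windows of this length, 3.92% held the ISRE letters and 8.87% the GAS letters. A match is a description of the sequence, and the annotated genes *Irf7* and *Oas1a* extend upstream of the start used for their windows.

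The arrays were checked before the genes were compared. Between 10 and 11 of the 11 neuronal markers measured lay above their array's median on every array of each group, as a sensory ganglion would show. The ratio of the 3′ to the 5′ GAPDH probeset, which rises as RNA breaks down, was read on the log2 scale. It was higher ipsilaterally without overlap in SNL L4, SNL L5 and sham L4, while the sides of sham L5 overlapped. It averaged 2.35 ± 0.12 in ipsilateral and 1.40 ± 0.06 in contralateral SNL L4 DRGs, and 1.61 ± 0.10 in ipsilateral and 0.97 ± 0.08 in contralateral SNL L5 DRGs (SD, n = 5 each). In sham rats it averaged 1.72 ± 0.08 in ipsilateral and 1.29 ± 0.12 in contralateral L4 DRGs, and 1.11 ± 0.11 in ipsilateral and 1.01 ± 0.09 in contralateral L5 DRGs (SD, n = 5 each). The same ratio for beta-actin was larger, from 3.38 to 5.33 over the 40 arrays. Its sides overlapped in SNL L4, sham L4 and sham L5. In sham L4 it ran from 4.22 to 4.86 in ipsilateral and from 4.57 to 5.06 in contralateral DRGs. In SNL L5 it was higher ipsilaterally without overlap, at 4.46 to 5.09 against 3.38 to 3.92. The part of these ratios in the results below was not tested. The array titles of the 10 SNL L5 DRGs share 1 prefix, and those of the remaining 30 share another. This was read as a separate array series, which the labels do not name. Levels of SNL L5 DRGs thus cannot be told apart from that series when they are set against other groups. Each comparison of sides lies within 1 series. Array medians ran from 28.6 to 55.6 signal units. *Irf7*, *Mx1* and *Gbp2* lay above their array's median on all 40 arrays, *Oas1a* on 1, and *Ifit3* on none, so *Ifit3* and *Oas1a* were measured in the dim range.

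**Figure D1:**
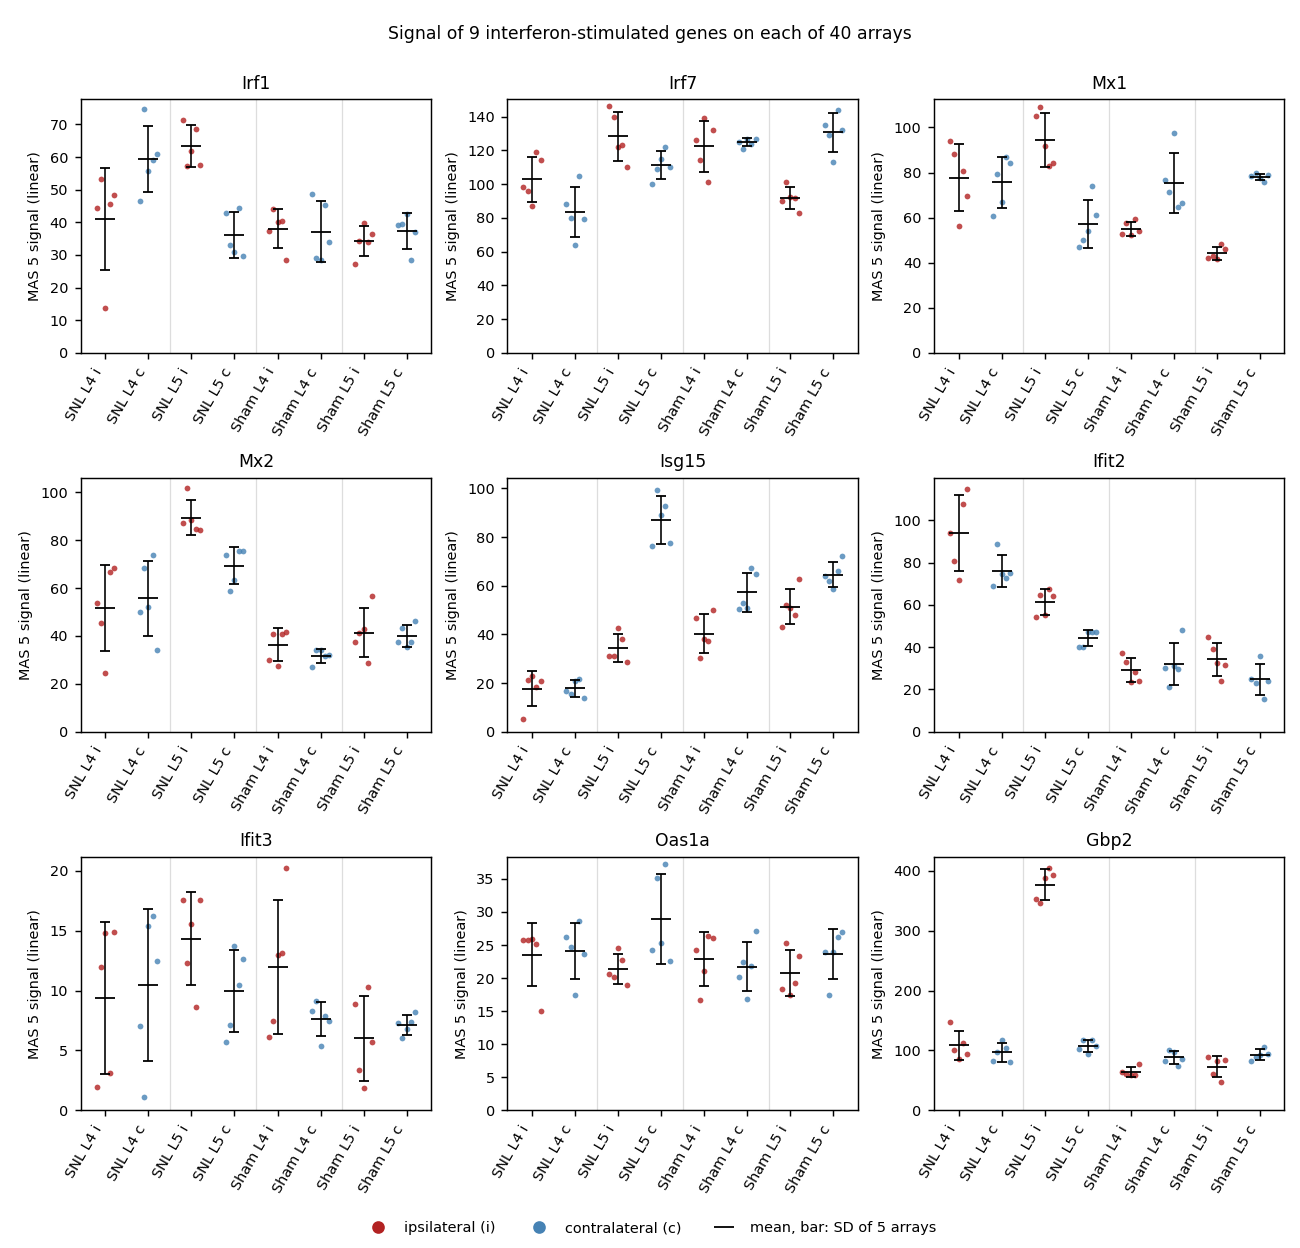
MAS 5 signal (linear scale, from 0) of the brightest probeset of each of the 9 genes on all 40 arrays. Each point is 1 DRG, red for ipsilateral (i) and blue for contralateral (c), with the mean and SD of 5 arrays as horizontal line and bar. The 5 ipsilateral SNL L5 arrays of *Gbp2*, between 346 and 405, lie above every other array, and all 10 SNL L4 arrays of *Isg15* lie below every other array.

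In the ligated L5 DRG, 5 of the 9 genes were higher on the ipsilateral side (*Gbp2*, *Irf1*, *Mx1*, *Ifit2* and *Mx2*), *Isg15* was lower, and *Irf7*, *Ifit3* and *Oas1a* did not pass the test. *Gbp2* rose 3.17-fold and *Isg15* fell to 0.488 of the contralateral level. These counts stand beside 35.4% of all genes called higher and 19.0% called lower in the same comparison. The median log2 difference of the 9 genes was 0.31, against 0.13 for all genes. After scaling each array to the same median, the all-gene median was 0.00 and that of the 9 genes 0.14. *Mx2* and *Ifit2* then kept their direction without passing the test (adjusted p = 0.255 and 0.106), *Oas1a* passed as lower, and the split of all calls went to 43.0% higher, against 65.1% in the scaling as deposited.

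*Gbp2*, a guanylate-binding GTPase that is induced most strongly by interferon-gamma and acts against intracellular microbes, showed the largest difference of the 9. Its signal was 353, 346, 387, 405 and 392 in the ipsilateral SNL L5 DRGs of rats 4, 8, 9, 18 and 48, against 102, 117, 93.6, 118 and 108 in the contralateral DRGs of the same rats. Every ipsilateral array was far above every contralateral one, with no overlap. The log2 difference was 1.67 ± 0.07 (SE, n = 5 and 5, limma adjusted p = 2.37e-12), and it stayed between 1.36 and 1.80 over 20 alternative settings.

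*Irf1*, a transcription factor that carries the early response to interferon-gamma, had signals of 71.5, 57.2, 61.9, 68.7 and 57.7 in the ipsilateral SNL L5 DRGs of rats 4, 8, 9, 18 and 48, against 43.0, 33.0, 30.8, 44.5 and 29.7 in their contralateral DRGs. The sides did not overlap, and the log2 difference was 0.61 ± 0.11 (SE, adjusted p = 0.000126). *Irf7*, the factor that amplifies type I interferon production, averaged 128 ± 14.4 in ipsilateral and 111 ± 7.94 in contralateral DRGs (SD, n = 5 each). Its sides overlapped, with a log2 difference of 0.18 (95% interval 0.01 to 0.34, adjusted p = 0.0691) that was -0.02 after median scaling.

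*Mx1* and *Mx2* encode dynamin-like GTPases that trap viral components, and in rodents they lie beside each other, here on chromosome 11. *Mx1* signals were 105, 109, 91.6, 82.7 and 84.1 in ipsilateral SNL L5 DRGs of rats 4, 8, 9, 18 and 48, against 46.9, 50, 54, 74 and 61 in contralateral DRGs. All ipsilateral arrays were higher than all contralateral ones, with a log2 difference of 0.60 ± 0.10 (SE, adjusted p = 0.000135). *Mx2*, on its brightest probeset, averaged 89.3 ± 7.37 in ipsilateral and 69.4 ± 7.78 in contralateral DRGs (SD, n = 5 each). Its sides did not overlap either, and the log2 difference of 0.31 ± 0.08 (SE) had an adjusted p of 0.00582.

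*Isg15*, the small modifier that is attached to proteins during an interferon response, moved the other way. Its signal was 31.1, 31.2, 42.8, 38.3 and 28.7 in ipsilateral SNL L5 DRGs of rats 4, 8, 9, 18 and 48, against 76.5, 99.5, 89.3, 92.6 and 77.7 in contralateral DRGs. Every ipsilateral array was lower than every contralateral one. The log2 difference was -1.04 ± 0.10 (SE, adjusted p = 1.78e-07), and it lay between -1.34 and -0.62 over 20 alternative settings.

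*Ifit2* and *Ifit3* encode tetratricopeptide proteins of a family with members that bind foreign RNA and hold back its translation. *Ifit2* averaged 61.2 ± 6.07 in ipsilateral and 44.4 ± 3.78 in contralateral SNL L5 DRGs (SD, n = 5 each), with no overlap and a log2 difference of 0.35 ± 0.09 (SE, adjusted p = 0.0035). *Ifit3* ran from 8.60 to 17.6 in ipsilateral and from 5.74 to 13.7 in contralateral DRGs, and its log2 difference of 0.23 had an interval from -0.04 to 0.49. *Oas1a*, whose enzyme makes the oligoadenylates that activate an RNA-degrading nuclease, averaged 21.4 ± 2.25 in ipsilateral and 28.9 ± 6.77 in contralateral DRGs (SD, n = 5 each, log2 difference -0.25, adjusted p = 0.0886). The sides of these last genes, *Ifit3* and *Oas1a*, overlapped. In all, 6 of the 9 genes had sides that did not overlap, beside 40.7% of all genes.

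**Figure D2:**
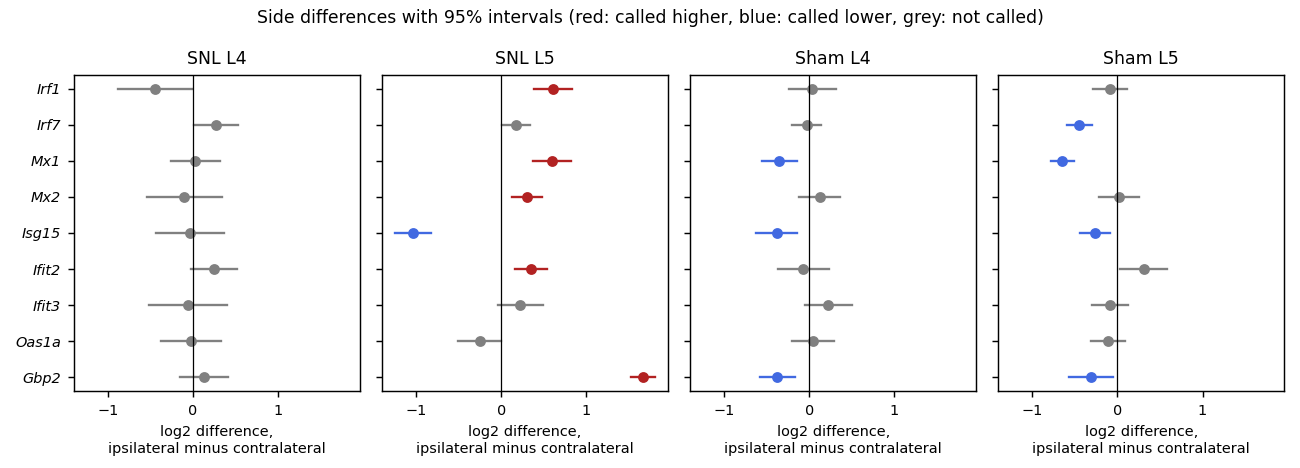
Log2 difference, ipsilateral minus contralateral, of the 9 genes in SNL L4, SNL L5, sham L4 and sham L5 DRGs, on log2(signal + 16). Points are estimates from 5 against 5 arrays with 95% intervals, coloured red where called higher, blue where called lower and grey where not called. *Gbp2* at 1.67 and *Isg15* at -1.04 are the extremes, both in SNL L5, and no gene is called in SNL L4.

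Macrophage markers were mostly higher in the ligated DRG. Of 14 macrophage markers, 12 were higher on the ipsilateral SNL L5 side and none lower, with a median log2 difference of 1.36, and the same 12 to 0 split was found after quantile normalization and after median scaling. Their summed signal ran from 3740 to 4120 in ipsilateral and from 1280 to 1410 in contralateral DRGs, and *Cd14* and *Itgam* lay below the array median on every ipsilateral array. Of 12 T and NK cell markers 5 were higher, and 1 after either rescaling, but all 12 lay below the array median on every SNL L5 array, with summed signals of 164 to 233 in ipsilateral and 122 to 159 in contralateral DRGs. Of 11 neuronal markers 8 were lower and 2 higher, with summed signals of 14300 to 16400 in ipsilateral and 17400 to 21300 in contralateral DRGs. Of 6 neutrophil markers 5 were lower and none higher, with summed signals of 443 to 481 in ipsilateral and 1000 to 1060 in contralateral DRGs. Of 8 glial markers 5 were higher and 1 lower, and of 7 endothelial markers 4 were higher and 1 lower, becoming 3 and 1 and 2 and 2 after median scaling. The part of these cell types in the differences of the 9 genes was not tested.

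In the neighbouring L4 DRG of SNL rats, none of the 9 genes passed the test on its brightest probeset in limma, while 11% of all genes were called higher and 10% lower. Only *Irf1* and *Irf7* had an unadjusted p under 0.05 in the fit of these 10 arrays (0.0437 and 0.0458), and the count stayed at 0 in the methods' t-test and in each of the 10 fits that left out 1 array. *Irf1* signals were 44.5, 53.2, 13.7, 45.6 and 48.5 in ipsilateral SNL L4 DRGs of rats 4, 8, 9, 18 and 48, against 46.4, 74.6, 55.8, 59.2 and 61.0 in contralateral DRGs. The ipsilateral DRG of rat 9 stood far below the rest, and the sides overlapped (log2 difference -0.45, 95% interval -0.89 to -0.01, adjusted p = 0.146). Without that array the difference was -0.23 (adjusted p = 0.302). It held the lowest value of its group for 6 of the 9 genes. *Irf7* averaged 103 ± 13.4 in ipsilateral and 83.3 ± 14.9 in contralateral DRGs (SD, n = 5 each, log2 difference 0.27, adjusted p = 0.151). *Irf1* and *Irf7* passed when all 8 groups shared 1 estimate of the spread (adjusted p = 0.0156 and 0.0159). *Gbp2* ran from 86.5 to 148 in ipsilateral and from 80.7 to 118 in contralateral SNL L4 DRGs, with a log2 difference of 0.13 (95% interval -0.15 to 0.41). *Isg15* was dim on both sides, at 5.02 to 23 in ipsilateral and 13.8 to 21.8 in contralateral DRGs, below the array median on all 10 arrays. The sides overlapped for all 9 genes, while they did not for 16.2% of all genes. Of the 14 macrophage markers 4 were higher here and none lower, with summed signals of 1390 to 1560 in ipsilateral and 1290 to 1470 in contralateral DRGs. Of the 6 neutrophil markers 5 were lower, with summed signals of 212 to 265 in ipsilateral and 1160 to 1280 in contralateral DRGs, and *S100a8*, *Camp*, *Mmp8* and *RatNP-3b* lay below the array median on every ipsilateral array.

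In sham rats the calls ran downward. At sham L4, *Mx1*, *Isg15* and *Gbp2* were lower on the ipsilateral side and none of the 9 was higher, beside 13.7% of all genes called lower and 12.8% called higher. At sham L5, *Mx1*, *Irf7*, *Gbp2* and *Isg15* were lower and none was higher, beside 28.2% of all genes called lower and 21.4% called higher. Under quantile normalization and under median scaling 6 of the 9 were lower at sham L5, *Irf1* and *Oas1a* being added under both. Of all genes, 27.3% were called lower there under quantile normalization and 56.7% under median scaling. The median log2 differences of the 9 genes, -0.03 at L4 and -0.11 at L5, lay beside 0.01 and -0.03 for all genes. After median scaling the all-gene medians themselves were -0.17 and -0.28, and those of the 9 genes were -0.23 and -0.32.

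*Mx1* showed the clearest sham difference. Its signals in ipsilateral sham L5 DRGs of rats 1, 14, 17, 22 and 23 were 42.1, 42.8, 41.5, 48.5 and 46.1, against 78.3, 79.8, 77.7, 76.0 and 78.9 in contralateral DRGs. The sides were tight and well apart, with a log2 difference of -0.65 ± 0.06 (SE, adjusted p = 9.70e-07). At sham L4 *Mx1* averaged 55.1 ± 3.12 in ipsilateral and 75.3 ± 13.3 in contralateral DRGs (SD, n = 5 each, log2 difference -0.35, adjusted p = 0.0153), again without overlap. *Irf7* signals in sham L5 were 89.8, 101, 92.6, 91.9 and 83.1 in ipsilateral DRGs of the same rats, against 135, 129, 113, 144 and 132 in contralateral DRGs. All ipsilateral values were lower, with a log2 difference of -0.45 ± 0.07 (SE, adjusted p = 7.16e-05), whereas *Irf7* at sham L4 differed by -0.03 (95% interval -0.20 to 0.14).

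*Isg15* averaged 40.4 ± 7.94 in ipsilateral and 57.3 ± 8.05 in contralateral sham L4 DRGs (SD, n = 5 each, log2 difference -0.38, adjusted p = 0.0217). At sham L5 it averaged 51.4 ± 7.25 in ipsilateral and 64.5 ± 5.11 in contralateral DRGs (SD, n = 5 each, log2 difference -0.26, adjusted p = 0.0152). It was thus called lower ipsilaterally in 3 of the 4 comparisons of sides. The sham L4 call depended on single arrays, with an adjusted p of 0.0679 or 0.0624 once the contralateral DRG of rat 22 or rat 23 was left out, and of 0.0524 without the ipsilateral DRG of rat 14. *Gbp2* averaged 64.4 ± 7.99 in ipsilateral and 88.4 ± 11.2 in contralateral sham L4 DRGs (SD, n = 5 each, log2 difference -0.38, adjusted p = 0.00866). At sham L5 it ran from 48.1 to 89.1 in ipsilateral and from 81.7 to 106 in contralateral DRGs, overlapping (log2 difference -0.31, adjusted p = 0.0419, and 0.0633 with the rat as a block). This call was fragile. It was lost when any of 6 arrays was left out (ipsilateral rats 14 and 22, contralateral rats 14, 17, 22 and 23, with differences of -0.32 to -0.20 and adjusted p of 0.0624 to 0.0989), and with quantile normalization (adjusted p = 0.128), no trend (0.0540) or the methods' t-test (0.102). *Ifit2* had a log2 difference of 0.31 at sham L5, with an adjusted p of 0.0618, and of 0.0350 with the rat as a block. *Irf1*, *Mx2*, *Ifit3* and *Oas1a* passed in neither sham segment, with log2 differences between -0.11 and 0.22. At sham L4, 2 of the 9 genes had sides without overlap, beside 17.4% of all genes, and at sham L5 it was also 2, beside 32.8%.

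Macrophage markers were more often lower than higher on the ipsilateral side in sham rats. At L4, 5 of 14 were lower and 1 higher on the ipsilateral side, with summed signals of 1110 to 1390 in ipsilateral and 1350 to 1550 in contralateral DRGs. At L5, 7 of 14 were lower and 2 higher, with summed signals of 1430 to 1690 in ipsilateral and 1690 to 1890 in contralateral DRGs. Neuronal markers ran the other way, with 8 of 11 higher and none lower at sham L4 and 7 higher and 1 lower at sham L5, and these became 7 and 2 at L4 and 5 and 4 at L5 after median scaling, and 2 and 0 at L4 and 1 and 1 at L5 after quantile normalization. Their summed signals ran from 23900 to 25800 in ipsilateral and from 15400 to 18100 in contralateral sham L4 DRGs, and from 17700 to 22000 in ipsilateral and from 12400 to 13700 in contralateral sham L5 DRGs. Neutrophil markers were 3 of 6 higher and 1 lower at sham L4 and 6 of 6 higher at sham L5, where their summed signals of 252 to 291 in ipsilateral and 130 to 152 in contralateral DRGs were low on both sides. The part of this in the sham results was not tested.

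The difference between SNL and sham rats was tested directly as the SNL side difference minus the sham side difference. At L5, *Gbp2* (1.98 ± 0.14 on the log2 scale, SE, adjusted p = 1.82e-11), *Mx1* (1.25 ± 0.12, adjusted p = 4.65e-09), *Irf1* (0.70 ± 0.14, adjusted p = 0.000205) and *Irf7* (0.62 ± 0.10, adjusted p = 1.59e-05) were higher in SNL, and *Isg15* was lower (-0.77 ± 0.13, adjusted p = 1.80e-05). These 4 and 1 of 9 stand beside 32.1% of all genes called higher and 18.3% called lower. For *Irf7* and *Mx1* the SNL and sham values entered with opposite signs, the sham value being the larger in size. *Irf7* had 0.18 in SNL L5 and -0.45 in sham L5, and *Mx1* had 0.60 and -0.65. For *Ifit2* the brightest probeset gave 0.35 in SNL L5 and 0.31 in sham L5, and their difference of 0.05 had an interval from -0.28 to 0.38. *Mx2*, *Ifit3* and *Oas1a* did not pass. At L4 only *Gbp2* passed (0.51 ± 0.17, adjusted p = 0.0434), beside 8.93% of all genes called higher and 7.73% lower. That call was lost with the rat as a block (adjusted p = 0.0708). It was also lost without any of 12 of the 20 arrays taken singly, for which the difference stayed between 0.40 and 0.52. Here too the sham value of *Gbp2* was the larger in size, with 0.13 in SNL L4, not called, and -0.38 in sham L4, called lower.

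The L5 against the L4 side difference within SNL rats was tested in the same way and shares the SNL L5 arrays with the comparison above. *Gbp2* (1.53 ± 0.15, SE, adjusted p = 1.10e-08), *Irf1* (1.06 ± 0.24, adjusted p = 0.00175) and *Mx1* (0.57 ± 0.17, adjusted p = 0.0194) were higher at L5 and *Isg15* was lower (-1.0 ± 0.21, adjusted p = 0.000936), beside 15.1% of all genes called higher and 10.3% lower. The other 5 genes did not pass. Each of these 4 calls held in all alternative settings and without any single array.

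*Mx2* and *Ifit2* each had a second probeset, and these did not follow the brightest one in every comparison. The choice of the brightest was close, with mean log2 values of 6.02 and 5.99 for *Mx2* and of 5.94 and 5.92 for *Ifit2*. On the second *Mx2* probeset (1369202_at), the signals were 101, 55.2, 47.8, 106 and 111 in ipsilateral SNL L4 DRGs of rats 4, 8, 9, 18 and 48, against 43.7, 50.3, 48.4, 40.8 and 31.8 in contralateral DRGs. Of the ipsilateral arrays 4 exceeded all contralateral ones, that of rat 8 by little, and that of rat 9 lay among them (log2 difference 0.71 ± 0.19, SE, adjusted p = 0.0142), where the brightest probeset gave -0.10. In SNL L5 DRGs this probeset was near 0 on both sides, at 0.288 to 9.82 in ipsilateral and 0.695 to 4.45 in contralateral DRGs. On the 30 arrays of the other series it ran from 31.8 to 168, while the brightest *Mx2* probeset was highest in SNL L5. In sham L5 it was lower ipsilaterally (69.2 ± 13.4 against 136 ± 27.7, SD, n = 5 each, log2 difference -0.83, adjusted p = 7.05e-05), without overlap, where the brightest probeset gave 0.02. Which of the *Mx2* probesets follows the *Mx2* transcript, and whether either also reads *Mx1*, was not tested.

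The second *Ifit2* probeset (1384180_at) was higher ipsilaterally in SNL L5 (68.0 ± 4.78 against 50.9 ± 10.7, SD, n = 5 each, log2 difference 0.34, adjusted p = 0.0132), as the brightest one was. In SNL L4 it averaged 56 ± 16.5 in ipsilateral and 33.7 ± 3.21 in contralateral DRGs (SD, n = 5 each, log2 difference 0.50, adjusted p = 0.0464, and 0.0553 with the rat as a block). In sham L5 the probesets disagreed in sign. The second one averaged 33.6 ± 2.26 in ipsilateral and 53.6 ± 9.03 in contralateral DRGs (SD, n = 5 each, log2 difference -0.48, adjusted p = 0.000651), where the brightest gave 0.31. As a result, the difference between SNL and sham at L5 was 0.82 on the second probeset (adjusted p = 3.55e-05) and 0.05 on the brightest.

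**Figure D3:**
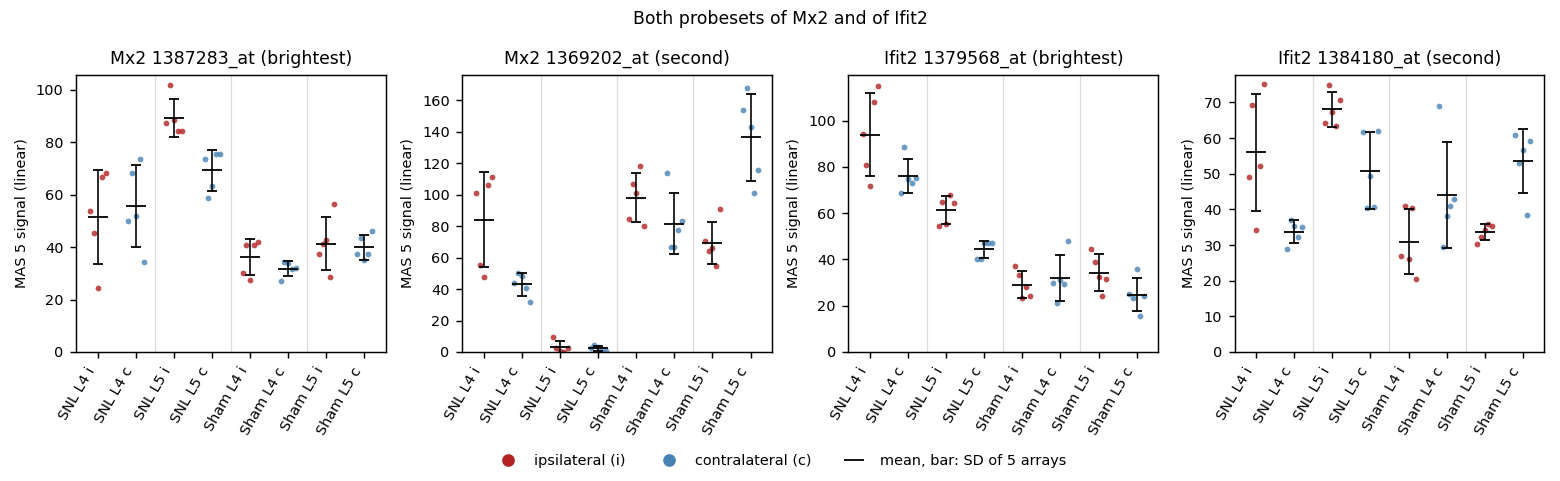
MAS 5 signal (linear scale, from 0) of both probesets of *Mx2* and both of *Ifit2* on the 40 arrays. Points are single DRGs, red for ipsilateral (i) and blue for contralateral (c), with the mean and SD of 5 arrays. The second *Mx2* probeset lies at 9.82 or below on all 10 SNL L5 arrays and at 31.8 or above on the other 30. The second *Ifit2* probeset is lower ipsilaterally in sham L5 without overlap. The brightest *Ifit2* probeset leans the other way there, with overlapping sides and no call.

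Set in order by group mean, the 9 genes had different profiles over the 8 groups. These are levels as deposited, and array medians differed between the groups. The medians ran from 28.6 to 29.7 in contralateral sham L5 and from 42.1 to 43.8 in ipsilateral SNL L5 DRGs. In SNL L4 they ran from 48.4 to 50.5 contralaterally and from 52.7 to 55.6 ipsilaterally. Whether the orders hold after scaling was not tested. *Gbp2* was highest in ipsilateral SNL L5 DRGs at 377 ± 25.8, above contralateral SNL L5 DRGs at 108 ± 10.4 (SD, n = 5 each), and the means of its other 7 groups lay between 64.4 and 108, with neighbours in the order overlapping. *Mx1* was highest in ipsilateral SNL L5 DRGs at 94.4 and lowest in ipsilateral sham L5 DRGs at 44.2, and the 4 groups between 75.3 and 78.1 could not be ordered beyond their spread. *Isg15* was highest in contralateral SNL L5 DRGs at 87.1 and lowest in the SNL L4 DRGs, at 17.6 ipsilaterally and 17.8 contralaterally, below the next group at 34.4 without overlap. *Ifit2* on its brightest probeset was highest in SNL L4 DRGs, at 94.0 ipsilaterally and 76.1 contralaterally, and every SNL L4 array lay above every other array. On the brightest probesets, both sides of the SNL L4 DRGs thus stood apart for *Isg15* and *Ifit2*, in opposite directions. Neither of these probesets passed the test between those sides. The second *Ifit2* probeset did not set the SNL L4 DRGs apart. They ranked 2 ipsilaterally and 6 contralaterally among the 8 groups, and this probeset was called higher ipsilaterally there (limma adjusted p = 0.0464). For *Irf7*, *Irf1*, *Ifit3* and *Oas1a* each group overlapped its neighbours in the order throughout, with group means of 83.3 to 131, 34.3 to 63.4, 6.02 to 14.4 and 20.7 to 28.9 signal units.

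Taken as a whole set, the 9 genes were weakly correlated from DRG to DRG, while some pairs were not. Over the 36 pairs of genes, Pearson's r across the 40 arrays ran from -0.71 (*Isg15* with *Ifit2*) to 0.75 (*Mx2* with *Gbp2*), with a median of 0.12. After the group means were removed it ran from -0.36 (*Mx1* with *Isg15*) to 0.44 (*Irf1* with *Mx2*), with a median of 0.04 and 21 of the 36 above 0. It was 0.42 for *Mx2* with *Gbp2*, 0.38 for *Irf1* with *Mx1* and 0.35 for *Mx1* with *Mx2*. Pairs with the dim *Ifit3* or *Oas1a* carry more noise, and their part in these medians was not tested. The contralateral SNL L5 DRG of rat 18 lay above its group mean for all 9 genes. Among 11188 bright probesets of other genes, the patterns most like that of *Gbp2* over the 40 arrays were those of the transcription factor *Jun* (r = 0.95) and the lysosomal thiol reductase *Ifi30* (r = 0.93). Those most like *Ifit2* were *Esco2* and *Mbd4* (r = 0.92 each), and those most like *Isg15* were *Eef1akmt1* and *Gabbr1* (r = 0.90 each). The nearest patterns to *Mx2*, *Mx1*, *Irf7* and *Irf1* were those of *Egflam* (r = 0.82), *Cav1* (r = 0.81), *Arhgef40* (r = 0.78) and *Sh3bp5* (r = 0.75), and for the dim *Oas1a* and *Ifit3* no r was above 0.54. These correlations are descriptions over arrays that share group, side and array series.

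The rest of the interferon pathway was read from lists of its parts. In SNL L5 all 6 receptor chains measured were higher ipsilaterally, under each scaling, with a median log2 difference of 0.78. The interferon-gamma receptor chains *Ifngr1* and *Ifngr2* were among them (0.78 ± 0.07 and 0.97 ± 0.08, SE), with *Ifngr2* at 132 ± 15.7 in ipsilateral and 59.3 ± 5.81 in contralateral DRGs (SD, n = 5 each). Of 10 interferon-gamma-induced GTPases and chemokines measured, 8 were higher and none lower (median 0.72), and 7 and 0 after quantile normalization and after median scaling. *Igtp*, a GTPase of the same defence system as *Gbp2*, differed by 0.95 ± 0.13 and the macrophage-attracting chemokine *Ccl2* by 0.53 ± 0.05 (SE). Of 11 genes of MHC class I loading and the immunoproteasome 5 were higher and 1 lower (3 and 1 after median scaling), with the immunoproteasome subunits *Psmb9* and *Psmb8* at 0.70 and 0.53.

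Of 31 other antiviral interferon-stimulated genes measured, 15 were higher and 6 lower in SNL L5 (median 0.21), and 9 and 7 after median scaling (median 0.04). Over all genes 35.4% were higher and 19.0% lower, and 21.1% and 28.0% after median scaling, so the share of these genes that fell was close to or below that of all genes. The membrane protein *Ifitm3*, which blocks viral entry, averaged 969 ± 44.8 in ipsilateral and 390 ± 19.9 in contralateral DRGs (SD, n = 5 each, log2 difference 1.28). *Rsad2*, which encodes viperin, and its chromosomal neighbour *Cmpk2*, a nucleotide kinase, fell with *Isg15*. *Rsad2* averaged 76.3 ± 12.1 in ipsilateral and 193 ± 8.89 in contralateral DRGs (log2 difference -1.19), and *Cmpk2* averaged 61.5 ± 7.87 in ipsilateral and 152 ± 9.52 in contralateral DRGs (SD, n = 5 each, log2 difference -1.12). *Rsad2* was also lower in SNL L4 (-0.49, adjusted p = 0.0135). Of the 5 enzymes of ISG15 conjugation, the activating enzyme *Uba7* was higher (0.50) and the conjugating enzyme *Ube2l6* lower (-0.30) in SNL L5, while after median scaling none was higher and 2 were lower. Of 6 brakes on the response 2 were higher and 2 lower (2 and 3 after either rescaling), with the JAK-STAT phosphatase *Ptpn2* at 1.13 ± 0.08 (SE). Of 5 JAK-STAT genes 2 were higher and none lower, but 1 was higher and 2 lower after median scaling.

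**Figure D4:**
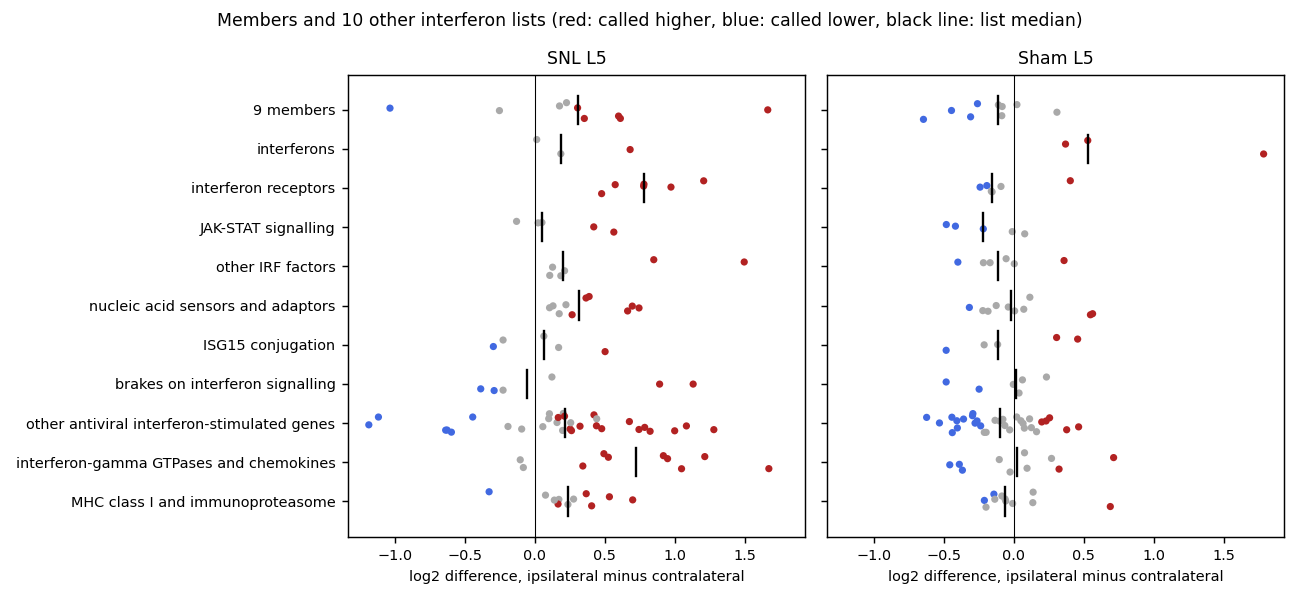
Log2 difference, ipsilateral minus contralateral, of the 9 genes and of 10 lists of other interferon genes in SNL L5 (left) and sham L5 (right). Each point is a gene on its brightest probeset, red where called higher, blue where called lower and grey where not called, and the black line is the list's median. The 6 receptor chains are all higher in SNL L5, with a median of 0.78, and the other antiviral genes have a median of 0.21 in SNL L5 and -0.10 in sham L5.

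The same lists were read in the other DRGs. In SNL L4, 3 of the 6 receptor chains and 4 of the 10 sensors and adaptors were higher and none lower, 2 of the other 31 antiviral genes were higher and 2 lower, and 1 of the 10 interferon-gamma-induced genes was higher. Over all genes 11% were higher and 10% lower in SNL L4. The receptor calls in SNL L4 became 0 after median scaling. In sham L5, 12 of the 31 antiviral genes were lower and 5 higher, with *Znfx1* at -0.62 and *Rtp4* at -0.53. After median scaling 21 were lower and 1 higher. Over all genes 28.2% were lower and 21.4% higher in sham L5, and 56.7% and 10.9% after median scaling. *Usp18*, the protease that removes ISG15 and damps the type I receptor, was lower at both sham segments (-0.43 at L4 and -0.48 at L5). Of 3 interferons measured, *Ifnk* was higher ipsilaterally in all 4 comparisons, by 1.22 at L4 and 0.68 at L5 of SNL rats and by 0.66 at L4 and 1.78 at L5 of sham rats.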

How the data were processed

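Signals of 40 Affymetrix rat genome arrays, 1 per DRG, were deposited as linear intensity values, which the authors had made with MAS 5 (the sources used here state no version). Groups and rat numbers came from the sample labels. All 40 columns were used, and 57 control probesets were left out. Signals were transformed to log2(signal + 16). Each comparison of sides was fitted to its 10 arrays, and each difference of differences to its 20, with limma 3.58.1 (lmFit, then eBayes with an intensity trend) run under R 4.3.3. P-values were adjusted by Benjamini-Hochberg over 31042 probesets and called under 0.05. Probeset symbols came from the platform annotation, which gave 20826 probesets 1 symbol, 436 several and 9780 none, and named 14217 genes. Fits were tested on simulated arrays.

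The 9 genes and all lists were chosen with earlier results of these data known. From each other list, up to 3 called genes per comparison of sides with the largest difference and a mean above the median probeset were open to naming. Likeness was ranked over bright probesets with 1 symbol. Counts over lists cover the genes measured, and the others were not analysed here. Both sides came from the same rat, so rat numbers in the labels pair them. Across probesets, a rat's ipsilateral and contralateral departures from their group means had correlations of -0.01 to 0.04 at L4 and -0.06 to 0.04 at L5 in SNL rats, and of -0.05 to 0.10 at L4 and -0.14 to 0.01 at L5 in sham rats. The methods name a paired test for the miRNAs of these DRGs but do not state pairing for the mRNA arrays, so the rat entered only as an alternative. Other alternatives were the offset, quantile and median scaling, dim probesets left out, no trend, the methods' t-test, all 8 groups in 1 fit, the other probeset, and leaving out each array.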

Additional observations from a re-analysis of the deposited data

Results flagged for a closer look

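In 4 of 88 groups of 5 arrays a single array lay far from the other 4, where chance gives about 1 in 20 groups. The gap to the nearest array, as a share of the group's range, was 0.842 for *Irf1* in the ipsilateral SNL L4 DRG of rat 9 (13.7, against 44.5 to 53.2 in the others) and 0.789 for *Isg15* in that of rat 4 (5.02, against 18.3 to 23). It was 0.946 for *Oas1a* in that of rat 48 (15.0, against 25.2 to 25.9) and 0.759 for *Mx2* in the ipsilateral SNL L5 DRG of rat 8, the only high one (102, against 84.3 to 88.4). Of these, 3 are ipsilateral SNL L4 arrays, each of a different rat.

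Side differences that differed between groups by a test of the difference itself are given on the log2 scale. SNL minus sham at L5 gave 1.98 for *Gbp2*, 1.25 for *Mx1*, 0.70 for *Irf1*, 0.62 for *Irf7* and -0.77 for *Isg15*, and 0.89 and 0.82 for the second probesets of *Mx2* and *Ifit2*. SNL minus sham at L4 gave 0.51 for *Gbp2* and 0.85 for the second *Ifit2* probeset. L5 minus L4 in SNL gave 1.53 for *Gbp2*, 1.06 for *Irf1*, 0.57 for *Mx1* and -1.0 for *Isg15*. The second *Mx2* probeset was at 0.288 to 9.82 in ipsilateral and 0.695 to 4.45 in contralateral SNL L5 DRGs, so its SNL part rests on signals near 0.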

How the results depend on the processing

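Counts of the 9 genes and of all probesets called were recomputed under each alternative. With all 8 groups in 1 fit, SNL L4 had 1 gene higher, 1 lower and 10507 probesets called, against 0, 0 and 5938. In SNL L5, quantile normalization and median scaling each gave 3 genes higher and 2 lower, against 5 and 1. Quantile normalization called 5552 probesets in sham L4, against 8413. In sham L5, leaving out dim probesets gave 1 gene higher (*Ifit2*) and 9236 probesets, against 0 and 15618. The methods' t-test at its own threshold called 2543 probesets in SNL L4, 7314 in SNL L5 (14638 in limma), 2908 and none of the 9 genes (0 lower) in sham L4, and 6659 and 2 genes lower in sham L5. For SNL minus sham at L4, an offset of 64, quantile normalization and no trend gave 0 genes higher and median scaling 2, against 1. With the rat as a replicate block, sham L5 had 1 gene higher and SNL minus sham at L4 had 0, and the probesets called were 5672 at L4 and 14350 at L5 of SNL rats and 8672 at L4 and 14727 at L5 of sham rats. The block changed no other call of the 9 genes on their brightest probesets than those of *Ifit2* and *Gbp2* in sham L5 and *Gbp2* in SNL minus sham at L4. The second probeset turned *Mx2* to 0.71 in SNL L4 and -0.83 in sham L5, and *Ifit2* to -0.48 in sham L5. Median scaling moved the share of calls that were higher to 25.2% in SNL L4 (52.3% without it), to 14.2% in sham L4 (48.4%) and to 16.1% in sham L5 (43.1%). The causes were not tested.

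Leaving out each array in turn gave 5 to 6 genes higher and 1 lower in SNL L5, 0 called in SNL L4, 2 to 3 lower in sham L4, and 0 to 1 higher and 3 to 4 lower in sham L5. It gave 0 to 2 higher for SNL minus sham at L4, 4 to 5 higher and 1 lower for SNL minus sham at L5, and 3 higher and 1 lower for L5 minus L4. Probesets called ranged from 4901 to 5743 in SNL L4, 13541 to 14262 in SNL L5, 6368 to 8105 in sham L4, 14036 to 15674 in sham L5, 3631 to 4485 and 12749 to 13457 for SNL minus sham at L4 and L5, and 5382 to 6021 for L5 minus L4. Precision is limited by 5 arrays a group, by MAS 5 signals without detection calls, and by dim probesets, above all those of *Ifit3* and *Oas1a*.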
